A study of Homo sapiens with 2 samples.

Results

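Exons with alternative ends are exons that the annotation lists more than once, with 1 boundary in common and the other boundary moved. They were found among the exon records of A673 cells, an established Ewing sarcoma cell line, by taking every record of 31 to 3999 bases outside chromosome Y and keeping those that share chromosome, gene and either the start or the stop, but not both, with another record in that length range. This gave 11982 of the 224827 records in the length range, of 230470 records in all. They form 6965 pairs of a shorter and a longer record at 5480 loci (a locus is a cluster of linked pairs) in 4054 genes. The start was the shared side in 3540 pairs and the stop in 3425. In each pair the shorter record was compared with the added stretch, the bases that only the longer record holds, and the reads of the added stretch are the longer record's reads minus those of the shorter. The 3896 pairs whose longer record had 50 or more reads over both libraries (55.9% of all pairs), in 2256 genes, are described here as tested pairs, and all counts and medians below refer to them. The choice of pairs did not use the difference between the libraries. Just inside that limit, 59 pairs with 50 to 54 reads had 21.3% and 20.3% of their reads in the added stretch in the RUNX3 knockdown and the control, and just outside it 62 pairs with 45 to 49 reads had 22.3% and 26.6%.

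RUNX3, a transcription factor, was knocked down in A673 with the hairpin sh813 (the library titled 813), and a control population received the non-target hairpin shNT (titled NT); each is 1 library from a selected population. Both hairpins were delivered by lentivirus made in HEK 293T cells and harvested after 72 hours, with polybrene at 6 µg/mL, and selection lasted 6 days in puromycin at 0.4 µg/mL. Polyadenylated RNA was sequenced with paired ends. The hairpin field of each label contradicts its title, and the groups follow the titles. RUNX3 itself had 387 read pairs in sh813 and 1391 in shNT, a log2 fold of -1.92 (exact 95% counting interval -2.09 to -1.76), lower in the library titled as the knockdown. The libraries held 23342660 and 24326135 read pairs assigned to genes. Of the markers of Ewing sarcoma cells, CD99 had 98474 and 88396 read pairs in sh813 and shNT, NKX2-2 2495 and 6381, and NR0B1 3017 and 6172. PAX7 had 856 and 4433, STEAP1 382 and 646, and CCK 135 and 82. Of the markers of the virus-producing HEK 293T cells, PAX2 had 0 and 1, LIN28B 2 and 2, GATA3 33 and 93, NEFL 73 and 122, and NEFM 105 and 75. With 1 library per group no test of the conditions could be made. All intervals below are exact 95% intervals that cover counting error only, and they compare these libraries rather than the conditions.

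An exon's downstream boundary is set by a splice donor, the site where the spliceosome cuts the exon from the following intron, and its upstream boundary by a splice acceptor. Introns almost always begin with the bases GT and end with AG, and a gene that has competing donors or acceptors near each other can lengthen or shorten an exon and so insert or drop amino acids, shift the reading frame or add a stop codon. A longer exon can also arise when a donor is skipped and the transcript runs on to a polyadenylation site inside the intron, which turns an internal exon into a composite last exon, or when an intron between neighbouring exons is kept. By transcript strand, the tested pairs were sorted into 1508 alternative acceptors (the 5′ boundary moves), 142 alternative starts (the same in a first exon), 1276 alternative donors (the 3′ boundary moves), 107 alternative transcript ends (the same in a last exon) and 813 pairs in which the longer record runs over a neighbouring exon, called retained introns or fused exons here. For 50 pairs no strand was assigned.

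The sequences at the moved boundaries showed what the added stretches are. For 1892 tested pairs (48.6%) an exon pair of the same gene with the same lengths and the same shared side was found in GENCODE release 29 transcripts (GRCh38), and the sequences come from these transcripts. The stretches added at acceptors, all coding, are shown first, because the end of each is the competing acceptor. Added bases are in capitals, followed by the first bases of the shorter exon in lower case.
FN1: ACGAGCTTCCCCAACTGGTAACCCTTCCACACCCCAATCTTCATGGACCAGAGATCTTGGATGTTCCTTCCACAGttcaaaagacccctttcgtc
STAT3: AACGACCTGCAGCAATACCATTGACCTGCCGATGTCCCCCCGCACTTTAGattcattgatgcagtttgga
CPSF4: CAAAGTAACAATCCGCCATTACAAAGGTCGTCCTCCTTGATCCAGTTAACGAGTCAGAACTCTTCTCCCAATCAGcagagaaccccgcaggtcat
PTBP1: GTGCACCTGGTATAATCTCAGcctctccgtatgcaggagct
ACIN1: CAGctaccaagggggtgccagct
CELF1: CAGtggaagacaggaagctgttt
ING4: AAGgccggactcaaaaggagaag
Each of these added stretches ends in AG. Among all matched acceptor pairs this held for 936 of 953 (98.2%, exact interval 97.2 to 99.0%), against 228 of 595 added stretches of donor pairs (38.3%). At alternative starts it held for 26 of 46 (56.5%), so that class, set by position among the gene's records, can also hold acceptors. In 118 of the 953 acceptor pairs the long form is a first exon in GENCODE. The last 3 sequences add only CAG or AAG, the arrangement known as a tandem or NAGNAG acceptor. The FN1 stretch (fibronectin, a matrix protein) lies at hg19 chr2:216237024-216237098 and opens the variable region that holds an integrin-binding site. The STAT3 stretch, at chr17:40468870-40468919, separates the full-length transcription factor from a form with a shorter C-terminus.

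Stretches added at donors are shown with the last bases of the shorter exon in lower case and the added bases in capitals, because the first letters in capitals are those that the shorter form uses as the start of its intron.
BCL2L1: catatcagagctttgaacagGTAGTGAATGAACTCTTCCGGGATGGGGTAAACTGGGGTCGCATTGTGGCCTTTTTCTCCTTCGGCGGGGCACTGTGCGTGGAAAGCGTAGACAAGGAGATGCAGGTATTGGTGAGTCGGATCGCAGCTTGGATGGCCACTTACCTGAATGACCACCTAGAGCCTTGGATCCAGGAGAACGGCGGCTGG
HNRNPC: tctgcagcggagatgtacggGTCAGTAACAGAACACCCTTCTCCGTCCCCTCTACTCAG
NFKBIL1: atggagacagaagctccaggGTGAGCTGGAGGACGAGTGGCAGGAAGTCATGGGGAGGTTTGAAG
HNRNPH3: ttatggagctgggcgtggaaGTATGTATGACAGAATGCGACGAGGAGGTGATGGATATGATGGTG
U2AF2: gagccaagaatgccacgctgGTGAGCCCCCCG
ING4: tgacagctcttccagcaaagGCAAAAAGA
The added stretch began with GT in 546 of 595 matched donor pairs (91.8%, interval 89.3 to 93.8%) and with GC, the commonest other donor, in 40, as in ING4. Among acceptor pairs, 99 of 953 added stretches (10.4%) began with GT. Where the longer donor form is a last exon in GENCODE, GT opened the added stretch in 127 of 129 pairs. At alternative transcript ends, which involve no splice site, GT opened 1 of 19. The BCL2L1 stretch, at chr20:30309458-30309646, separates the anti-apoptotic Bcl-x long form from the pro-apoptotic short form. The HNRNPC stretch (chr14:21699117-21699155) is the insert that separates the main forms of this RNA-binding protein.

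The lengths of the added stretches ranged from 1 to 3848 bases, with a median of 114, and differed between the classes. The median was 42 bases at acceptors, 72 at starts, 97.5 at donors, 4 at transcript ends and 532 in fused exons. A single length stood out at acceptors, where 276 of 1508 pairs added exactly 3 bases, ahead of 35 pairs that added 5 and 31 that added 6. Of the 200 such pairs with a matched sequence, 146 added CAG (73.0%), 29 AAG, 13 TAG and 8 GAG. At donors the commonest short length was 4 bases, with 28 pairs, little ahead of 12 bases with 25 and 6 bases with 23. Of the 4-base pairs 12 had a sequence, which was GTAG in 7 and GTAA in 2.

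**Figure D1:**
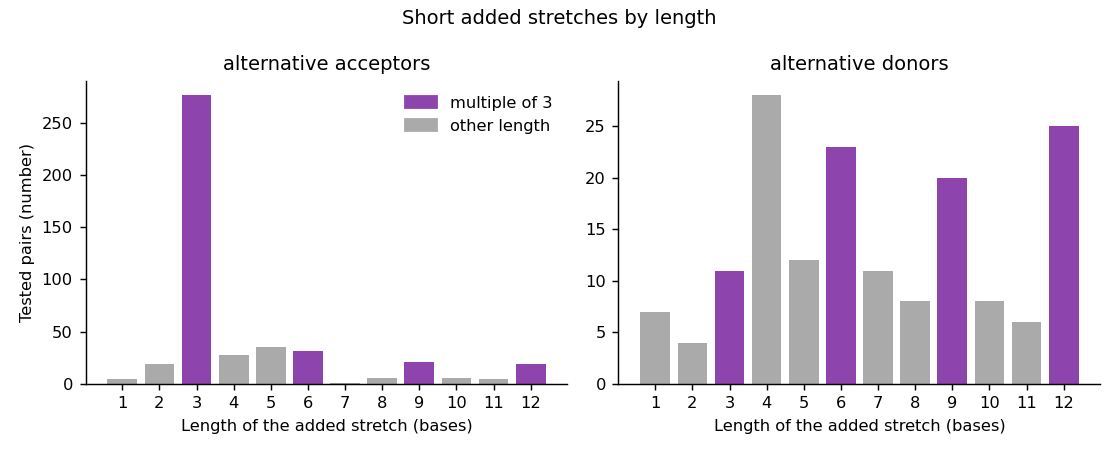
Number of tested pairs by the length of the added stretch, from 1 to 12 bases, for alternative acceptors (left) and alternative donors (right, on its own vertical scale); bars for multiples of 3 are purple. The 276 acceptor pairs of 3 bases exceed every other short length, while donors have 28 pairs at 4 bases, 25 at 12 and 23 at 6.

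Multiples of 3, which leave the reading frame as it is, were more frequent inside coding sequence. At acceptors, 448 of 592 wholly coding added stretches were a multiple of 3 (75.7%), against 104 of 284 that were not coding (36.6%). At donors the same counts were 230 of 350 (65.7%) and 29 of 95 (30.5%). In fused exons, 38 of 77 coding stretches were multiples of 3 (49.4%). These are properties of the annotation for genes with reads in A673 cells, not of either library.

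The share of a longer record's reads that lay only in the added stretch was nearly the same in the knockdown and the control for each class. This share is not the fraction of transcripts that use the longer form: a read that touches both the shorter record and the added stretch is counted with the shorter, so a 3-base addition takes few reads even where it is used often. Summed over pairs, acceptor additions took 13.5% of the longer record's reads in sh813 and 13.9% in shNT, donor additions 27.1% and 26.7%, transcript ends 8.62% and 8.48%, and fused exons 55.1% and 55.0%. Starts differed most, with 15.8% (15.4 to 16.1%) and 13.4% (13.1 to 13.7%), over 142 pairs, but this sum is weighted by the most read genes, and the median over the pairs was 0.478% and 0.467%. The share differed with length, though not steadily. Acceptor additions of 1 to 12 bases took 0.970% and 1.06%, and those of 51 to 100 bases 14.8% and 13.8%. Longer ones up to 300 bases took 12.6% and 12.4%, and those over 1000 bases 37.1% and 37.4%. Acceptor additions above 300 and up to 1000 bases took 47.0% and 51.6%, but the median over these pairs was 29.03% and 27.23%. Their sum counts the same reads more than once in overlapping SERF2 pairs of 687 and 798 added bases. Donor additions over 1000 bases took 70.3% and 68.8%. In 382 tested pairs the added stretch had no read in either library.

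To compare the libraries pair by pair, the ratio of added to shorter reads in sh813 was divided by the same ratio in shNT, which cancels the expression of the gene as a whole. On the log2 scale this ratio of ratios had a median of 0.01. Over the 2424 pairs with 20 or more added reads, the median size of the log2 ratio was 0.23, 1265 pairs (52.2%) were above 0, and the median difference between the 2 shares was 2.10 percentage points. The difference passed 10 points in 214 pairs. In 975 of all tested pairs (25.0%) the whole interval lay within 2-fold of no difference. For the remaining pairs a 2-fold difference was not excluded at this depth or, in a few, was seen.

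A pair was called different where the ratio of ratios was 2-fold or more and its whole interval lay beyond 1.5-fold. This rule called 6 of 3896 pairs, or 0.154%, all 6 higher in sh813 and none lower. Some pairs simulated with no difference and with counting error only were also called. They were drawn independently, while the pairs here can share a longer record, so they give no expected number. The count of 6 is not a result by itself. By the rule that asks only for 2-fold and an interval that leaves out 1, 31 pairs were past the limit (0.796%), 22 higher and 9 lower. Asking only that the interval leave out 1, with no minimum size, gave 111 (2.85%), of which 64 were higher (1.64%) and 47 lower (1.21%). An exact 95% interval may miss the true value in up to 5% of pairs by counting error alone, but 5% is an upper limit. The 2.85% also includes pairs that could not leave out 1, such as the 382 with no added read in either library. It can therefore not be judged against 5%. These counts by themselves do not show whether the pairs differ between the libraries, and a single pair near a limit is weak evidence. Among 89639 pairs of neighbouring exon records of a gene that do not overlap, taken as a background, the same rules called 37 (0.0413%), 158 (0.176%) and 795 (0.887%). Neighbouring records are read more deeply, with a median of 176 reads in the lesser record against 47 in the added stretches, and were less spread, with a median size of the log2 ratio of 0.15. Neighbours also share the spliced reads that span them, while the added and shorter reads of a pair are distinct, so the background is not a like-for-like null. With intervals widened until they hold for all 3896 pairs at once, a setting added after seeing the data, 11 pairs (0.282%) at 8 loci still left out 1. They were PSMA1, WHSC1, SPTBN1, ENSA and UBE2C, all higher in sh813, CDCA4 and 3 overlapping pairs of SERF2, all lower, and a pair in each direction in TCEB2.

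**Figure D2:**
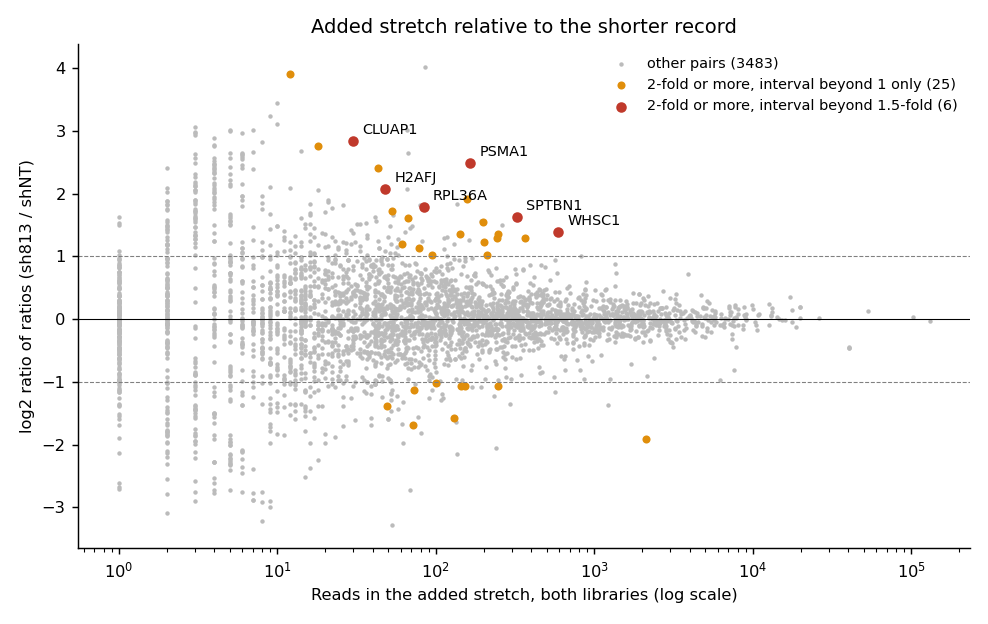
Log2 ratio of ratios (vertical, sh813 over shNT, dashed lines at 2-fold) against reads in the added stretch summed over both libraries (log scale), for tested pairs with any added read. Red points are the 6 called pairs and orange points the 25 that pass the wider interval rule only; the spread narrows to the right as reads increase.

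The 6 pairs were 4 of 1276 donor extensions, 1 of 107 transcript ends and 1 of 813 fused exons, with none of 1508 acceptors or 142 starts. Acceptors had fewer added reads, with 20 or more in 705 of their pairs against 815 of the donor pairs. The classes were not tested against each other. PSMA1, a subunit of the proteasome core, had the interval farthest from no difference. Its shorter record had 700 reads in sh813 and 1033 in shNT, and the 437 bases added downstream (hg19 chr11:14535512-14535948) had 131 and 34. The added stretch thus held 15.8% of the reads in sh813 (12.5 to 19.7%) and 3.19% in shNT (1.87 to 5.06%), intervals that do not overlap, and the log2 ratio of ratios was 2.49 (1.70 to 3.40, or 0.84 to 4.59 when widened for all pairs). The shorter record was lower in sh813 (log2 fold -0.64) while the added stretch was higher (1.84), so the pair moved in opposite directions. No GENCODE exon pair of this geometry was matched.

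WHSC1 encodes a histone methyltransferase. Its shorter record had 369 and 553 reads and its 2797 added bases (chr4:1941506-1944302) 377 and 216, or 50.5% and 28.1% of the longer record, a log2 ratio of 1.38 (0.93 to 1.84, widened 0.41 to 2.38). In GENCODE the short form is an internal exon and the long form a last exon, partly coding. The shorter record lies inside the longer one, so its reads can come from either form, and the ratio does not set 1 form against the other. SPTBN1, which encodes a spectrin chain of the membrane skeleton, has the same geometry. The gene as a whole was higher in sh813 (log2 fold 0.73). Its shorter record had 375 and 197 reads and its 2309 added bases (chr2:54887137-54889445) 277 and 46, giving 42.5% and 18.9% and a log2 ratio of 1.62 (0.89 to 2.44, widened 0.08 to 3.47). Here both parts were higher in sh813, the added stretch by 2.49 on the log2 scale and the shorter record by 0.85.

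The other 3 called pairs, RPL36A, H2AFJ and CLUAP1, did not leave out 1 once the interval was widened to hold for all pairs. RPL36A, a ribosomal protein gene, had 3002 and 3354 reads in the shorter record and 63 and 21 in 2030 added bases (chrX:100646811-100648840), an internal exon against a last exon whose added part is noncoding in GENCODE. The shares were small, 2.06% and 0.622%, and the log2 ratio was 1.79 (0.77 to 3.03). H2AFJ, a histone variant gene, had 854 and 1263 reads in its shorter record and 35 and 13 in the 3026 bases beyond it (chr12:14927911-14930936), a log2 ratio of 2.07 (0.74 to 3.78). The second H2AFJ pair, which shares the other end of the same longer record, mirrored this with a log2 ratio of -1.90 (-3.63 to -0.53), and both describe 1 locus. CLUAP1, a gene of ciliary transport, had 35 and 51 reads in the shorter last exon and 25 and 5 in 1084 added bases (chr16:3586586-3587669), with a log2 ratio of 2.84 (0.66 to 6.42).

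**Figure D3:**
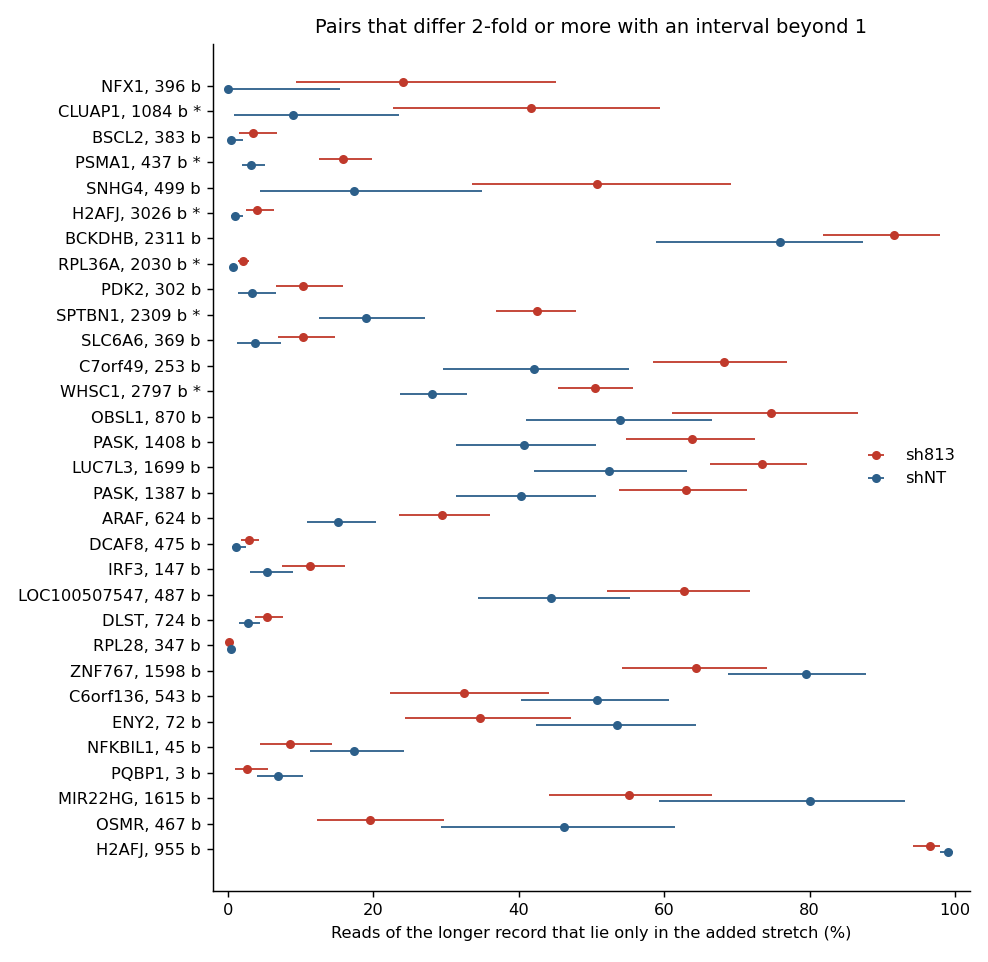
Share of the longer record's reads that lie only in the added stretch (horizontal, percent, with exact 95% intervals), in sh813 (red) and shNT (blue), for the 31 pairs that differ 2-fold or more with an interval that leaves out 1; labels give the gene and the added length in bases, and an asterisk marks the 6 called pairs. PSMA1, WHSC1 and SPTBN1 are among the rows whose 2 intervals stand clear of each other, and they are not the only ones, while many other rows overlap.

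The 25 pairs that passed only the wider interval rule included further donor extensions that were higher in sh813. In PASK, a kinase gene, 1408 added bases had 157 and 88 reads beside 89 and 128 in the shorter record, a share of 63.8% and 40.7%, and the log2 ratio was 1.35 (0.55 to 2.19). A second PASK pair of 1387 bases overlaps it and is not an independent count. In ARAF, a RAF-family kinase gene, 624 added bases had 128 and 72 reads beside 306 and 405 (1.22, 0.54 to 1.94). In C7orf49, 253 added bases had 146 and 53 reads beside 68 and 73 (1.55, 0.57 to 2.58). In NFX1, 396 added bases had 12 reads in sh813 and none in shNT, beside 38 and 44 in the shorter record. LUC7L3, a spliceosome-associated gene, was the only fused exon of a splicing factor in this set, with 265 and 98 reads in 1699 added bases beside 96 and 89 (1.30, 0.50 to 2.11).

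Of the 31 pairs, 9 were lower in sh813, and none of these passed the stricter rule. The coding donor stretch of NFKBIL1 printed above had 24 reads in sh813 and 49 in shNT beside 259 and 234 in the shorter record. Its share was 8.48% and 17.3%, and the log2 ratio was -1.12 (-2.35 to -0.02). PQBP1, a splicing-associated gene, had the only 3-base acceptor among the 31, with 12 and 37 added reads beside 458 and 502 (-1.38, -3.10 to -0.02). Both upper bounds lie at the edge of no difference. OSMR, the oncostatin M receptor gene, was higher in sh813 as a gene (log2 fold 1.74), with 144 and 43 reads in the shorter record and 35 and 37 in the 467 added bases of its last-exon form (-1.69, -2.99 to -0.42). RPL28 had 24 and 76 reads in 347 added bases beside 12208 and 18584 (-1.02, -2.13 to -0.09), a share of 0.196% and 0.407%.

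Other pairs differed by less than 2-fold with an interval that left out 1, though the intervals of PRMT2 and ATP5J also reached past 2-fold. ENSA, which encodes an inhibitor of a mitotic phosphatase, had 2310 and 2777 reads in its shorter record and 1431 and 1262 in 2364 added bases, a log2 ratio of 0.45 (0.25 to 0.64). PRMT2, an arginine methyltransferase gene, had 366 and 201 reads in 1236 added bases beside 339 and 356 (0.93, 0.46 to 1.42). RPL15 had 24786 and 28678 reads in 1610 added bases beside 10110 and 12775, and its log2 ratio of 0.13 (0.06 to 0.19) is small but beyond its counting interval. In the other direction, ATP5J, a subunit of mitochondrial ATP synthase, had 176 and 278 reads in 86 added bases beside 697 and 607 (-0.85, -1.32 to -0.39). Longer added stretches at this locus overlap another gene, GABPA. SLC38A10 had 487 and 617 reads in 622 added bases beside 399 and 340 (-0.57, -0.97 to -0.18).

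Long donor extensions were mostly above 0, that is, higher in sh813 relative to their shorter record. This pattern was noticed in the data, and its length limit was set afterwards. Of 106 donor pairs with more than 1000 added bases and 20 or more added reads, 76 (71.7%) were above 0, with a median log2 ratio of 0.33. The interval left out 1 upwards in 16 and downwards in 1, SLC39A3 (-0.37). Over all 2424 pairs with 20 or more added reads it did so upwards in 62 and downwards in 47. Over the 397 such pairs of any class with more than 1000 added bases, the counts were 34 and 18. With 1 pair per locus, 70 of 100 were above 0 with a median of 0.30, and 14 were past the interval upwards and 1 downwards. Donor extensions of 1000 bases or fewer, also 1 per locus, had 313 of 605 above 0 (51.7%) and a median of 0.01. Of these, 18 were past the interval upwards and 7 downwards. The shorter records of the long donor pairs had a median log2 fold of 0.07 and their added stretches 0.33, where the shorter records of all pairs with 20 or more added reads had -0.12 and their added stretches -0.08. Plain totals in place of TMM add 0.14 to each of these folds and leave the ratios as they are.

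The size of this shift varied with the subset taken. It was 0.21 over the 75 loci with 100 or more added reads, of which 51 were above 0, and 0.61 over the 33 loci where the long form is a last exon in GENCODE, of which 29 were above 0. Without added stretches that overlap another gene, 67 of 95 loci were above 0, and without the called pairs 67 of 97, with a median of 0.30. Long additions of the other classes had the following values, with no test of the difference. Acceptor additions over 1000 bases had 13 of 29 pairs above 0 and a median of -0.03, and transcript ends 10 of 12 and 0.21. Fused exons had 119 of 232 and 0.01, with 15 past the interval upwards and 14 downwards. With 1 pair per locus, long fused exons had 85 of 144 above 0 (59.0%) and a median of 0.07, with 12 past the interval upwards and 1 downwards. That choice keeps the pair with the most reads and, at equal reads, the longest added stretch. It therefore drops 1 side of pairs that share a longer record, and the counts by direction depend on it. Among the members not named so far, WTAP, a subunit of the RNA methyltransferase complex, had 541 and 341 reads in 1052 added bases beside 148 and 139 (0.59, 0.01 to 1.16), and RGS12 638 and 713 in 1222 added bases beside 377 and 602 (0.52, 0.17 to 0.87). No control library beside shNT and no second knockdown library was there to show how often such a shift arises between libraries of 1 condition, and its cause was not tested.

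**Figure D4:**
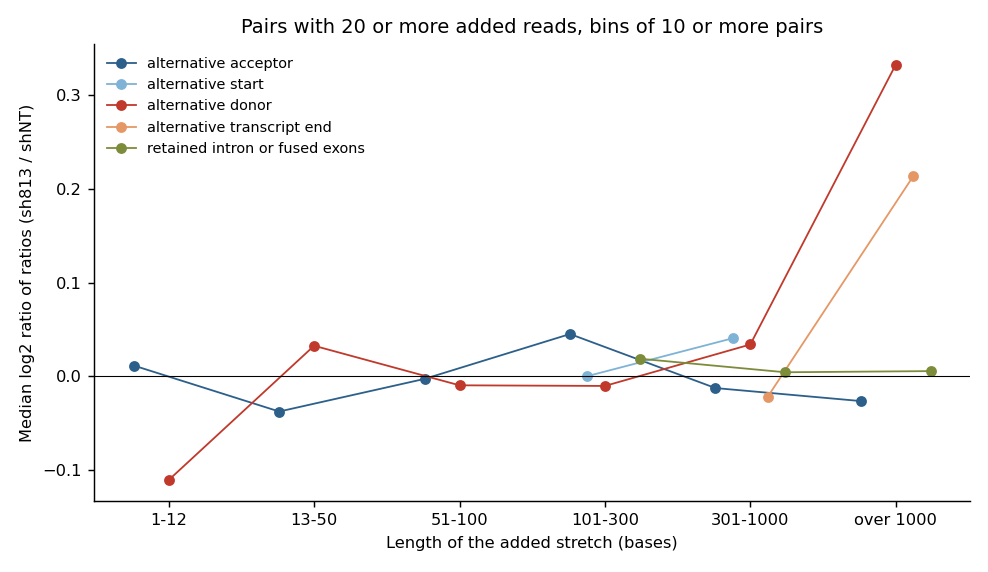
Median log2 ratio of ratios (vertical) by length of the added stretch (horizontal, 6 bins) for the 5 classes, over pairs with 20 or more added reads and in bins of 10 or more such pairs. Medians lie between -0.11 and 0.04 except in the bin over 1000 bases, where donors reach 0.33 and transcript ends 0.21.

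**Figure D5:**
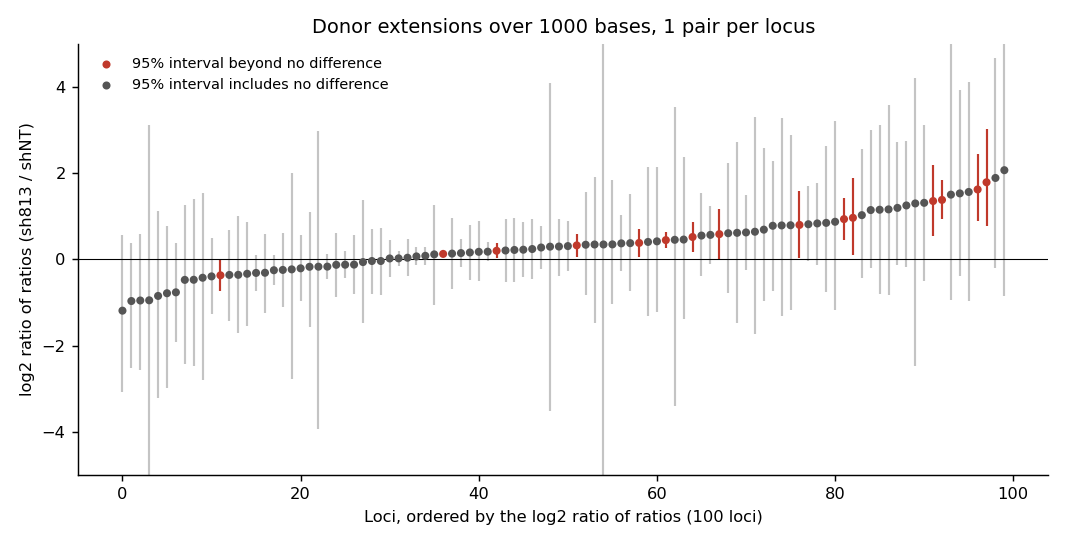
Log2 ratio of ratios with exact 95% intervals (cropped at the frame) for the 100 loci with a donor extension over 1000 bases, ordered by value; red marks the 15 loci whose interval leaves out 0. Of these 14 lie above 0 and 1 below, and 70 of all 100 points lie above 0.

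Genes known for alternative splice ends held no called pair. For the FN1 stretch printed above, the shorter record had 13938 reads in sh813 and 7524 in shNT and the added stretch 5141 and 2697. Its share was 26.9% and 26.4%, and the log2 ratio was 0.04 (-0.07 to 0.15), although the gene as a whole was higher in sh813 (log2 fold 0.76). The whole interval of FN1 thus lies well within 1.5-fold. For BCL2L1, the shorter record had 1618 and 1709 reads and the added stretch 748 and 692, shares of 31.6% and 28.8% (0.19, -0.07 to 0.45). STAT3 had 69 and 59 added reads beside 139 and 144 (0.22, -0.69 to 1.14), too few to bound a 2-fold difference. PTBP1, a splicing repressor, had 395 and 407 reads in its 21 added bases beside 1571 and 1848 (0.19, -0.13 to 0.51), and HNRNPC 360 and 297 in 39 bases beside 3650 and 3666 (0.29, -0.05 to 0.63). The apoptosis gene CASP2 had 159 and 143 reads in an 86-base donor extension beside 246 and 224 (0.02, -0.60 to 0.64).

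None of 11 gene lists held a called pair, against the background of 0.154%, at which lists of this size would seldom hold one. The list of textbook splice ends had 44 tested pairs in 18 genes and a median log2 ratio of 0.04, where the median over all pairs was 0.01. Splicing factors had 40 pairs in 27 genes and a median of 0.12, with 1 pair (LUC7L3) past the wider rule upwards. Ribosomal protein genes had 24 pairs in 13 genes and a median of 0.06, with RPL28 past the wider rule downwards. RPL36A, a called pair described above, is a ribosomal protein gene that is not on the list. Genes activated by EWS/FLI1, the fusion transcription factor of Ewing sarcoma, had 16 pairs in 8 genes and a median of -0.04, and genes repressed by it 10 pairs in 5 genes and 0.04. Cleavage and polyadenylation factors had a median of 0.22 over 12 pairs and 0.03 over the 9 with 20 or more added reads. Textbook polyadenylation genes had 0.18 over 5 pairs and -0.18 over the 3 with 20 or more added reads, so the sign depends on the pairs with few reads. Cell cycle genes had 0.06 over 11 pairs, matrix genes 0.02 over 11, and FET and ETS relatives -0.07 over 6, of which 1 had 20 or more added reads. RUNX factors and cofactors had 7 pairs in 5 genes, of which 4 had 20 or more added reads, with a median of 0.67 over these 4. The median over all 7 falls on a TLE2 pair with no added read in either library and is not given.

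RUNX3 itself, the target, has 1 tested pair, an acceptor that moves by 427 bases. Its shorter record had 24 and 146 reads and the added stretch 8 and 25, so both were lower in sh813, and the log2 ratio of 1.08 (-1.30 to 3.04) does not set them apart. CBFB encodes the shared partner that stabilises RUNX proteins on DNA. Its 31-base coding donor extension had 25 reads in sh813 and 3 in shNT beside 115 and 43 (0.94, -1.16 to 4.49), while the gene as a whole was higher in sh813, with 698 and 271 read pairs. In TLE3, a corepressor, 36 added bases had 20 and 27 reads beside 152 and 258 (0.29, -1.13 to 1.63). The 3-base acceptor of EWSR1, the 5′ partner of the fusion, had 8 and 6 added reads beside 448 and 456 (0.39, -2.14 to 3.23). The FLI1 pair had fewer than 50 reads and was not tested.

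Fused exons differ from the other classes in what their added stretch holds, namely an intron together with the next exon, so a ratio can move with either. A locus often gives several pairs, 813 pairs at 364 loci, and these can point in opposite directions. In TCEB2, an elongin subunit gene, the pair sharing 1 end of the long record had 2197 and 1722 added reads beside 2064 and 2654 (0.71, 0.54 to 0.89), and the pair sharing the other end had 3657 and 3999 beside 604 and 377 (-0.81, -1.10 to -0.53). The 2 pairs share 1 longer record and are not independent. In SERF2, the fused pair of 664 added bases had 17315 and 22984 reads beside 1049 and 1017 in the shorter record (-0.45, -0.64 to -0.27). In UBE2C, a ubiquitin-conjugating enzyme of mitosis, 668 added bases had 753 and 618 reads beside 1542 and 2102 (0.73, 0.47 to 0.99). CDCA4, SF1, RELA, SRSF2, IP6K2 and ZFP36L1 also gave pairs past the interval in both directions. Over all 813 fused pairs, 20 were past the interval upwards (2.46%) and 28 downwards (3.44%), against 1.64% and 1.21% of all tested pairs. These shares are not like for like. Of the fused pairs 792 had 20 or more added reads, against 2424 of all 3896 pairs, and pairs that share a longer record are counted more than once. Only 1 fused pair, H2AFJ, was called, where the share called over all tested pairs was 0.154%.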

How the data were processed

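The authors deposited, for each of the 2 libraries, exon and gene tables with raw read counts and RPKM values per record, per the file headers. The submitters' processing notes name CASAVA 1.9, TopHat2 2.0.6, HTSeq and the hg19 build, with no role or order. Only counts were used, and the RPKM values deposited by the authors were left out. In genes with more than 20 exon records the deposited exon counts, before halving, summed to 1.24 of the deposited gene count in both libraries, against 0.976 and 0.975 in genes with 1 record, so a spliced read is counted in each record it touches.

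Exon and gene counts were halved to read pairs, since both mates are counted (every deposited gene count is even), and exon values were rounded, which widens the intervals. Ratios used a prior of 0.5 read pairs. Intervals are exact conditional 95% intervals of the odds ratio, or Clopper-Pearson intervals for shares. Log2 folds of records and genes were scaled with TMM factors of 1.05 and 0.954 (edgeR 4.0.16), and plain totals shift them by 0.14. Strand came from GENCODE release 29 by gene symbol. The scripts were tested on simulated data, in which counting error alone also gave called pairs. Python 3.11.15, scipy 1.17.1 and R 4.3.3 were used.

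With 1 library per group, no p-values were computed, and depth and library differences cannot be told apart from the knockdown. Members, lists and classes were chosen with earlier results of these data known. The rule named the pairs of RUNX3, CBFB, EWSR1 and FLI1 and up to 12 called pairs in each direction by the interval bound nearest to no difference, with up to 3 per direction from each class and list. As only 6 pairs were called, the other named pairs, textbook genes included, were chosen after their values were seen. The intervals that hold for all pairs at once (Bonferroni), the interval rule with no minimum size and the length limit of 1000 bases were added after seeing the data. Alternatives tried were undivided reads, no minimum, 200 reads, a wider interval, 100 added bases, 1 pair per locus, leaving out overlapping genes or records, a prior of 2, and plain totals.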

Additional observations from a re-analysis of the deposited data

How the results depend on the processing

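The count of 6 called pairs stayed at 6 with no minimum of reads, added stretches of 100 bases or more, 1 pair per locus, without added stretches in other genes and with a prior of 2. It was 5 with 200 or more reads, where CLUAP1 fell below the minimum and the transcript-end count became 0, and 5 without added stretches that hold another record, where the H2AFJ pair leaves. With reads as deposited, undivided, it was 20, with 18 higher and 2 lower, since intervals narrow when mates count as independent, and it held all 6. By class these were 13 donors higher and 1 lower, 1 acceptor higher, 2 fused exons higher and 1 lower, CLUAP1 (transcript end) higher, and LOC100129917, with no strand, higher. With an interval beyond 1 in place of 1.5-fold it was 31, and 3 of the 6 held with intervals widened for all pairs. No named pair past 2-fold changed direction with undivided reads or a prior of 2. Taken as medians over pairs in place of pooled shares, sh813 and shNT gave 3.76% and 3.28% for acceptors, 0.478% and 0.467% for starts, 12.8% and 13.1% for donors, 0% and 0% for transcript ends, and 57.7% and 57.3% for fused exons. Plain totals in place of TMM moved the log2 fold of the shorter MEPCE record from -0.12 to 0.017 and left the ratios of ratios as they are. No paired analysis was possible because each group has 1 library. Depth limits the short additions, and the interval lay wholly within 2-fold in 25.0% of tested pairs.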
